A study of Mus musculus with 6 samples.

Results

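The proteasome subunit genes were taken as every gene on the array whose file name is Psma, Psmb, Psmc, Psmd or Psme followed by a number, which gave 43 genes with 54 probes, of 36163 gene names and 55681 probes in all. They cover the core particle, its regulatory particle, the activators and the chaperones of assembly. The arrays measured total RNA of jejunum, the middle part of the small intestine, from male C57BL/6J mice. In 1 group VND3207, named in the labels by this code alone, was put into the stomach at 100 mg/kg, and the other group received the same volume of vehicle. All mice of both groups were irradiated with 9 Gy 0.5 h later and the tissue was taken 6 h after the radiation. The values describe VND3207 on top of radiation, and the response to radiation itself, which needs unirradiated tissue, was not analysed here.

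The proteasome is the large protease that degrades proteins tagged with ubiquitin. Its barrel is made of outer rings of alpha subunits, which form the gate, and inner rings of beta subunits, of which a few cut peptide bonds. A regulatory particle of ATPase and non-ATPase subunits binds, unfolds and feeds in the substrate, and activators such as PA28 and PA200 can open the barrel without it. In cells exposed to interferon, and constantly in many immune cells, the catalytic subunits are replaced by immunoproteasome subunits, which changes the peptides cut for antigen presentation.

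In jejunum of VND3207 mice, 2 of the 52 proteasome probes tested were higher than in jejunum of vehicle mice and 0 were lower at an adjusted p under 0.05. The pair was Psmd2, a scaffold of the regulatory particle, at 1.40-fold and Psme3, the nuclear activator PA28 gamma, at 1.73-fold. Both calls were lost when any 1 of the 6 arrays was left out, while both differences kept their direction. Most other subunits differed little, as did most bright probes of the array. Of the 52 proteasome probes, 44 lay within 0.3 of 0 on the log2 scale. So did 21872 of all 36101 probes tested, and 10742 of the 13141 with a mean above the array's 75th percentile. The median proteasome difference was 0.07, with a range from -0.53 to 0.79.

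Levels are given as log2 of the processed signal minus the 75th percentile of the array's signals, so 0 is the 75th percentile and a level of one probe is not set against that of another. Differences are VND3207 minus vehicle on that scale, tested with limma over 36101 probes, with errors as moderated standard errors (SE). Of all probes tested, 0.925% were called higher and 14.6% lower, against 2 of 52 and 0 of 52 for the proteasome. At an unadjusted p under 0.05, 9 proteasome probes were higher and 2 lower in the same limma fit, against 4.93% and 22.2% of all probes tested. Limma with a trended, robust variance called 3 proteasome probes higher and 2 lower, against 1.25% and 14.4% of all probes. Among the 13141 probes with a mean above the 75th percentile, which 48 of the 52 proteasome probes exceeded, 0.662% were called higher and 4.57% lower. At an unadjusted p under 0.05 in the limma fit, 689 of these 13141 probes were higher and 1241 lower. The median difference was -0.06 over all probes tested and 0.01 over these brighter probes.

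Each array held 62976 spots, and none of the 59305 non-control spots was saturated. Of the non-control spots, 58.8% to 61.4% were well above background on the VND3207 arrays and 66.7% to 70.0% on the vehicle arrays. Slide 2 and scan 2 held only VND3207 arrays and slide 1 and scan 1 only vehicle arrays: for every value given here, batch and group cannot be told apart. The labels give 3 mice and 3 arrays a group but do not tie each array to 1 mouse, and p-values measure the spread between these samples. All 10 enterocyte markers were well above background on every array. In bulk tissue, fewer cells of a type and less RNA per cell cannot be told apart.

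The plot of differences by role shows most proteasome probes near 0, where most of the brighter probes of the array also lay. All 52 probes tested, of 41 genes, were well above background on all 6 arrays. The other 2 genes, Psma8, an alpha subunit of the testis, and Psmb11, the catalytic subunit of the thymus proteasome, were not well above background on any array. Differences were above 0 for 37 of the 52 probes (71.2%), against 41.9% of all probes tested and 52.6% of the brighter ones. The VND3207 and vehicle values did not overlap for 13 proteasome probes in the higher direction and 2 in the lower direction, or 25% and 3.85%. The same held for 9.41% and 24.9% of all probes tested, and for 13.6% and 14.3% of the brighter probes.

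**Figure D1:**
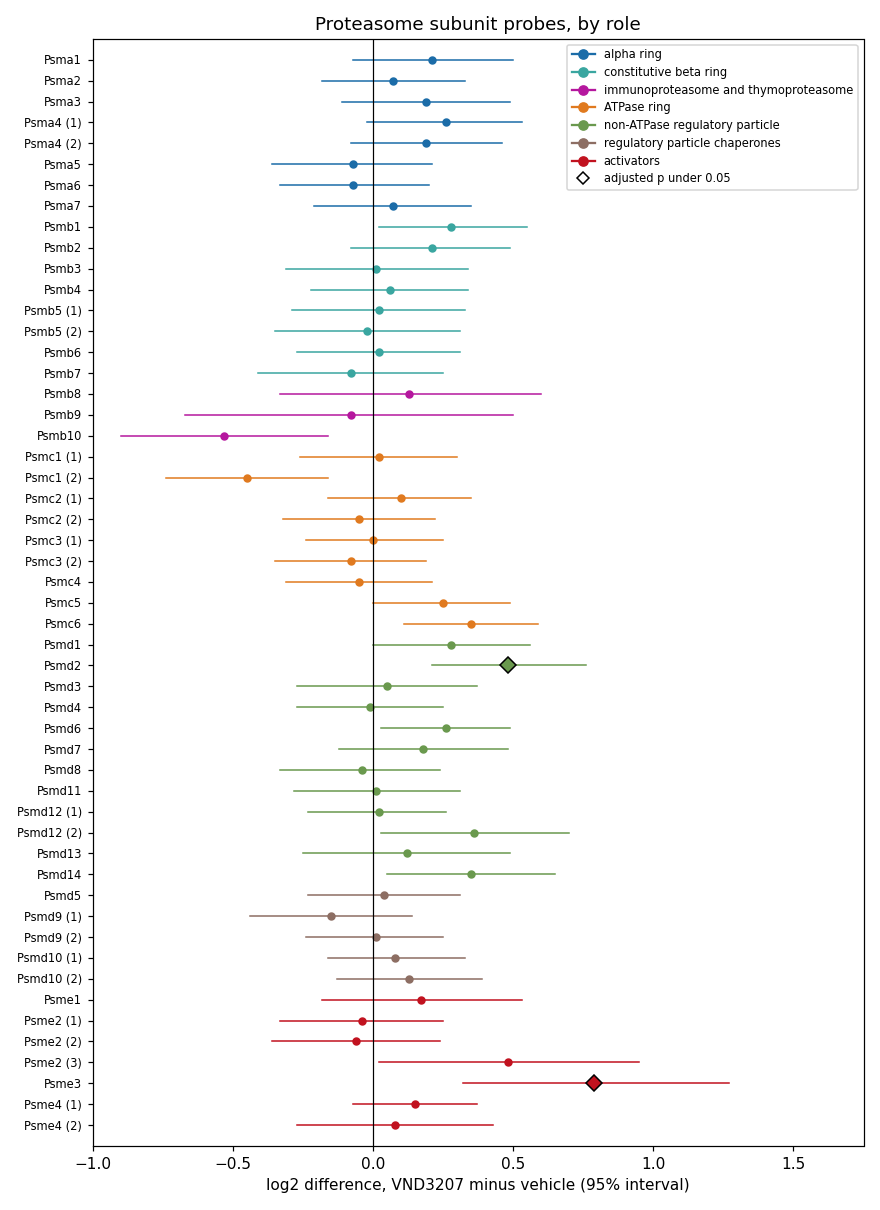
Log2 difference of each of the 52 tested proteasome probes, VND3207 minus vehicle (x axis, with the 95% interval of limma as a bar), listed by role on the y axis with the probe number where a gene has several. Diamonds mark Psmd2 and Psme3, the 2 probes past the threshold; Psmb10 and probe 2 of Psmc1 lie lowest, at -0.53 and -0.45.

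The alpha ring genes, which build the outer rings and the gate, had a median difference of 0.13 over 8 probes, and of 0.06 without vehicle replicate 3. The largest was that of Psma4, which 2 probes measured. The first Psma4 probe read 3.98, 4.11 and 4.13 in VND3207 mice, against 3.84, 3.94 and 3.67 in vehicle mice. The second Psma4 probe read 3.67, 3.72 and 3.76 in VND3207 mice, against 3.59, 3.62 and 3.36 in vehicle mice. On both probes the lowest VND3207 array exceeded the highest vehicle array, and the means differed by 0.26 (SE 0.11, limma adjusted p = 0.214) and 0.19 (SE 0.11, adjusted p = 0.346). The lowest alpha difference was that of Psma5, at -0.07 (SE 0.12, adjusted p = 0.747), and its groups overlapped. No alpha probe passed the threshold.

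The constitutive beta ring showed no call either, with a median difference of 0.02 over 8 probes, and of -0.06 without vehicle replicate 3. Its catalytic subunits are Psmb5, with chymotrypsin-like activity, Psmb6, with caspase-like activity, and Psmb7, with trypsin-like activity. Psmb6 read 6.22, 6.37 and 6.25 in VND3207 mice, against 6.35, 6.34 and 6.08 in vehicle mice, a difference of 0.02 with a 95% interval from -0.27 to 0.31. The 2 Psmb5 probes differed by 0.02 and -0.02, with intervals from -0.29 to 0.33 and from -0.35 to 0.31. Psmb7 differed by -0.08, with an interval from -0.41 to 0.25. The groups overlapped for all of these catalytic probes. Psmb1, a beta subunit with no active site, had the largest beta difference: it read 4.60, 4.55 and 4.52 in VND3207 mice, against 4.39, 4.31 and 4.12 in vehicle mice. Its groups did not overlap, and its difference of 0.28 (SE 0.11) had a limma adjusted p of 0.158.

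The immunoproteasome subunits did not move as a group. Psmb10, also called MECL-1 and the replacement for Psmb7, read 6.48, 6.80 and 6.80 in VND3207 mice, against 7.16, 7.44 and 7.06 in vehicle mice. Every VND3207 array was below every vehicle array, and the difference was -0.53 (SE 0.15, 95% interval -0.90 to -0.16, limma adjusted p = 0.0727). Its probe lies at chr8:108459677-108459736 in the mm9 build of the files. Psmb10 passed the threshold with a trended, robust variance (adjusted p = 0.0348), while its difference was -0.32 after quantile normalization and -0.07 after each array was corrected for brightness, GC content and place on the slide (adjusted p = 0.773).

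Psmb8, also called LMP7 and the replacement for Psmb5, read 4.81, 4.92 and 5.02 in VND3207 mice, against 4.92, 5.05 and 4.39 in vehicle mice. Psmb9, also called LMP2 and the replacement for Psmb6, read 4.41, 4.54 and 4.71 in VND3207 mice, against 4.68, 5.07 and 4.15 in vehicle mice. For both genes the VND3207 values lay inside the range of the vehicle values, and vehicle replicate 3 was the lowest array. The differences were 0.13 for Psmb8 (SE 0.19, 95% interval -0.33 to 0.60, limma adjusted p = 0.724) and -0.08 for Psmb9 (SE 0.24, 95% interval -0.67 to 0.50, adjusted p = 0.867). Without vehicle replicate 3 the median of the 3 immunoproteasome differences was -0.33, against -0.08 with it, and it was 0.13 without vehicle replicate 2. After the correction for brightness, GC content and place on the slide that median was 0.08. Psmb8 then differed by 0.39 (limma adjusted p = 0.129) and Psmb9 by 0.08 (adjusted p = 0.844).

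Within each array the log2 ratio of an immunoproteasome probe to the probe of the subunit it replaces was formed, a measure chosen after the values were seen and given with no test. Psmb10 minus Psmb7 was 3.24, 3.58 and 3.72 in VND3207 mice, against 3.77, 4.07 and 4.03 in vehicle mice, a difference in means of -0.45 with no overlap. Psmb8 minus the first Psmb5 probe differed by 0.11 and minus the second by 0.15, and Psmb9 minus Psmb6 differed by -0.11. In these 3 ratios the groups overlapped. The plot of named probes shows the lower Psmb10 beside the overlapping Psmb8 and Psmb9.

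**Figure D2:**
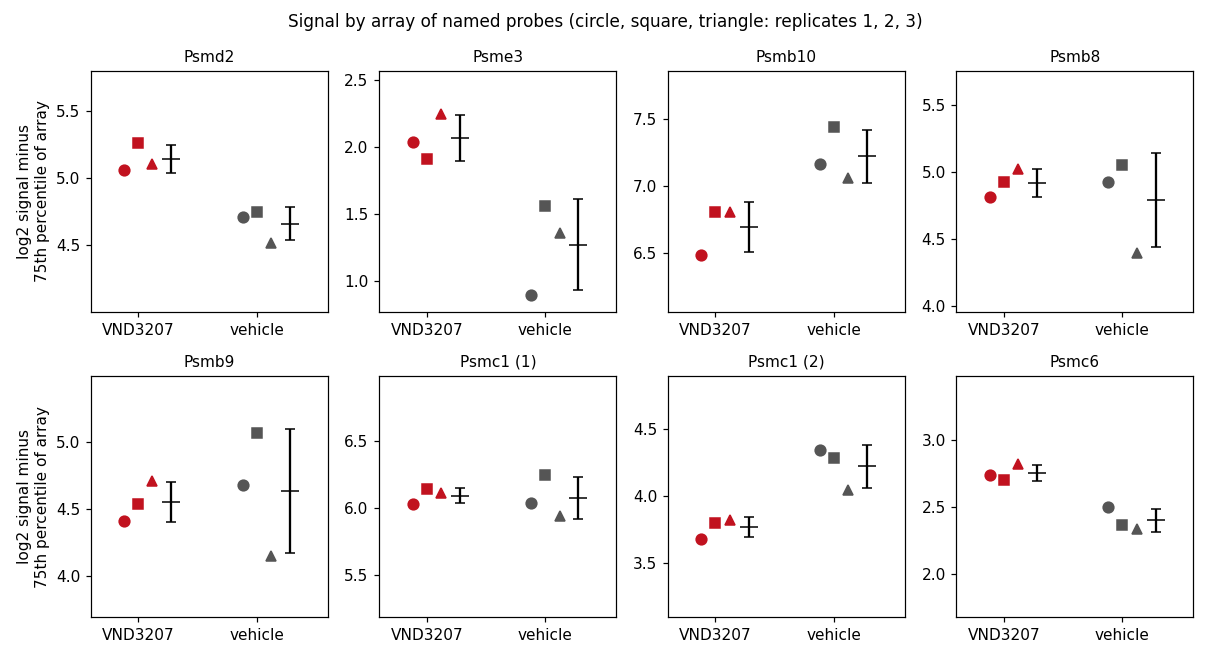
Log2 signal minus the 75th percentile of the array (y axis, each panel with its own range of equal height) for 8 proteasome probes in VND3207 arrays (red) and vehicle arrays (grey). Bars give the mean ± SD (n = 3 each); Psmd2, Psme3, Psmb10, probe 2 of Psmc1 and Psmc6 show no overlap between groups, whereas Psmb8, Psmb9 and probe 1 of Psmc1 do.

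The ATPase ring, whose 6 members unfold the substrate, had a median difference of 0.00 over 9 probes and no call. Psmc6 read 2.74, 2.70 and 2.82 in VND3207 mice, against 2.50, 2.37 and 2.34 in vehicle mice. All of its VND3207 arrays were the higher ones, by 0.35 (SE 0.10, 95% interval 0.11 to 0.59, limma adjusted p = 0.0666). The difference passed the threshold in 1 of 10 other settings, the trended, robust variance (limma adjusted p = 0.0274), and in 0 of 6 with an array left out. It was 0.17 after the correction for brightness, GC content and place on the slide (adjusted p = 0.342).

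The 2 probes of Psmc1, an ATPase that helps open the gate, disagreed. Probe 1, at chr12:101361515-101361574 in mm9, read 6.03, 6.14 and 6.11 in VND3207 mice, against 6.04, 6.25 and 5.94 in vehicle mice. Probe 2, at chr12:101361283-101361342, read 3.68, 3.80 and 3.82 in VND3207 mice, against 4.34, 4.28 and 4.04 in vehicle mice. The first probe overlapped between groups with a difference of 0.02 (SE 0.12, limma adjusted p = 0.941), and the second did not, with a difference of -0.45 (SE 0.12, adjusted p = 0.0558). Probe 2 minus probe 1 within each array was -2.35, -2.34 and -2.28 in VND3207 mice, against -1.69, -1.96 and -1.90 in vehicle mice. Probe 2 passed the threshold in 5 of 9 other settings and when vehicle replicate 3 was left out (-0.54, adjusted p = 0.0432). Which transcript parts the 2 probes sit in was not analysed here, and the lower value of probe 2 therefore stands for that probe and not for the gene. The other genes with several probes differed less between them, except Psme2, described with the activators.

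The non-ATPase subunits of the regulatory particle, which hold it together and bind ubiquitin, had 5 of 12 probes that did not overlap, all higher in VND3207 mice, against 9.41% higher and 24.9% lower over all probes tested and 13.6% and 14.3% over the brighter ones. These were Psmd1, Psmd2, Psmd6, the second probe of Psmd12, and Psmd14. The median difference of the 12 probes was 0.15, and 10 of them were above 0. Without vehicle replicate 3 the median was 0.07.

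Psmd2, known in yeast as Rpn1, is the scaffold on which shuttle factors and a deubiquitinase dock. Its probe lies at chr16:20663355-20663414 in mm9. It read 5.06, 5.26 and 5.11 in VND3207 mice, against 4.71, 4.75 and 4.52 in vehicle mice. Each VND3207 array exceeded each vehicle array, with means of 5.14 ± 0.10 in VND3207 mice and 4.66 ± 0.13 in vehicle mice (SD, n = 3 each). The difference was 0.48 (SE 0.11, 95% interval 0.21 to 0.76, limma adjusted p = 0.038). Leaving out 1 array at a time gave differences of 0.41 to 0.53 and adjusted p-values of 0.0759 to 0.124. Relative to the median of the proteasome probes on each array, Psmd2 was 0.81, 0.87 and 0.70 in VND3207 mice, against 0.34, 0.40 and 0.38 in vehicle mice.

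Psmd14, the deubiquitinase that removes the ubiquitin chain before degradation, read 1.84, 1.93 and 1.84 in VND3207 mice, against 1.73, 1.46 and 1.38 in vehicle mice. Its groups did not overlap, and its difference was 0.35 (SE 0.12, limma adjusted p = 0.132). Psmd4, a receptor for ubiquitin chains, read 5.56, 5.57 and 5.58 in VND3207 mice, against 5.53, 5.73 and 5.48 in vehicle mice, a difference of -0.01 (SE 0.11, 95% interval -0.27 to 0.25). Psmd1, a large scaffold subunit, differed by 0.28 (SE 0.11, adjusted p = 0.19) and Psmd6 by 0.26 (SE 0.10, adjusted p = 0.143). Psmd12, a lid subunit, had a second probe that differed by 0.36 (SE 0.14, adjusted p = 0.155), while its first differed by 0.02 (SE 0.10, adjusted p = 0.939). Psmd8 had the lowest difference of the 12, at -0.04 (SE 0.12, adjusted p = 0.864).

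The chaperones Psmd5, Psmd9 and Psmd10 help assemble the ATPase ring and are absent from the mature complex. Their 5 probes differed by -0.15 to 0.13, and the groups overlapped for each of them. The lowest was the first probe of Psmd9 (SE 0.12, limma adjusted p = 0.504) and the highest the second probe of Psmd10 (SE 0.11, adjusted p = 0.521).

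Among the activators, Psme3 passed the threshold, and no probe of the PA28 alpha and beta genes or of PA200 did. Psme3 encodes PA28 gamma, which sits on nuclear proteasomes and is not induced by interferon, and its probe lies at chr11:101184289-101184348 in mm9. It read 2.04, 1.91 and 2.25 in VND3207 mice, against 0.90, 1.56 and 1.36 in vehicle mice. The groups did not overlap, with means of 2.07 ± 0.17 in VND3207 mice and 1.27 ± 0.34 in vehicle mice (SD, n = 3 each). The difference was 0.79 (SE 0.20, 95% interval 0.32 to 1.27, limma adjusted p = 0.0442), and without vehicle replicate 1, the lowest array, it was 0.61. Its adjusted p passed the threshold in 5 of 10 other settings, and was 0.0637 after quantile normalization and 0.0604 in the deposited value table.

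Psme1, the interferon-induced PA28 alpha, was printed 10 times on each array, and the SD over those spots was 0.022 to 0.046 within an array. It read 5.94, 6.06 and 6.00 in VND3207 mice, against 5.92, 6.01 and 5.54 in vehicle mice. The groups overlapped, vehicle replicate 3 lay well below the rest, and the difference was 0.17 (SE 0.15, 95% interval -0.18 to 0.53, limma adjusted p = 0.522), or 0.03 without that array. Psme2, the partner PA28 beta, differed by -0.04 (SE 0.12, adjusted p = 0.871) and -0.06 (SE 0.12, adjusted p = 0.803) on its first 2 probes. Its probe 3, which the file describes as a pseudogene, read -3.60, -3.95 and -3.59 in VND3207 mice, against -4.55, -4.07 and -3.97 in vehicle mice (0.48, SE 0.19, adjusted p = 0.171). Its groups did not overlap, and its difference was 0.31 without vehicle replicate 1, 0.83 after quantile normalization (adjusted p = 0.0525) and in the deposited value table (adjusted p = 0.0524), and 0.78 after the correction, where it passed the threshold (adjusted p = 0.0401). Psme4, the large activator PA200, differed by 0.15 (SE 0.09, adjusted p = 0.36) and 0.08 (SE 0.14, adjusted p = 0.775). Its first probe read 0.31, 0.39 and 0.37 in VND3207 mice, against 0.20, 0.23 and 0.19 in vehicle mice, with no overlap.

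The DNA just upstream of the start of Psmd2 and Psme3 is shown because these are the 2 genes past the threshold. Both are the 250 bases before the RefSeq start in build GRCm38.p6, on the plus strand, Psmd2 at chr16:20651402-20651651 and Psme3 at chr11:101315963-101316212, with capitals marking CG pairs.
Psmd2: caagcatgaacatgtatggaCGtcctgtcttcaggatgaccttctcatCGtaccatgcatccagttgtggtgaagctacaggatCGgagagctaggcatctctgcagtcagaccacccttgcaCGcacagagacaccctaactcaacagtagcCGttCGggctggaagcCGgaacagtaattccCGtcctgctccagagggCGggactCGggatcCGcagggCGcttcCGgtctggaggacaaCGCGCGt
Psme3: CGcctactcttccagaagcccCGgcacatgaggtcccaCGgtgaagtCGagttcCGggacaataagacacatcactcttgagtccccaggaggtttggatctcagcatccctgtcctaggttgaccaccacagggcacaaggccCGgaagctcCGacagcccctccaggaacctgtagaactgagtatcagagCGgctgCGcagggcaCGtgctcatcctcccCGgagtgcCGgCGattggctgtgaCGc
The Psmd2 stretch was 57.6% GC with 16 CG pairs and the Psme3 stretch 60.8% GC with 14. The median over 39 promoters of 36 matched proteasome genes was 15 CG pairs, against 6 over 32851 promoters of all genes.

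A pair of motifs known from textbook regulation of these genes was searched on both strands of 300 bases around each start (250 before and 50 after). The antioxidant element, TGACNNNGC, is bound by the factors that raise constitutive subunits, and was in 15.4% of proteasome promoters (6 of 39), against 12.4% of all promoters. The interferon element, searched as GAAA repeated after any 2 bases, was in 10.3% (4 of 39), against 3.44% of all promoters. Its carriers were Psmb3, Psmd4, Psmd9 and Psme1, the last with its match 9 bases into the transcript. Neither motif was in the windows of Psmd2 or Psme3, and the interferon letters were not in those of Psmb8, Psmb9 or Psmb10, which says nothing of the factors. The matches nearest the start of a catalytic subunit and of an interferon-induced activator are shown, with the motif in capitals, as Psmb5 at chr14:54618024-54618052 (minus strand), Psmb6 at chr11:70525338-70525366 (plus strand) and Psme1 at chr14:55578493-55578522 (plus strand).
Psmb5: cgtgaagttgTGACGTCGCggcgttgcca
Psmb6: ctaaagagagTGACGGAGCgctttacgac
Psme1: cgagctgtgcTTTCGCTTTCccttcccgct
The difference was 0.02 and -0.02 for Psmb5, 0.02 for Psmb6 and 0.17 for Psme1, none of them past the threshold. The antioxidant letters were also in Psmc6 (0.35), Psmd12 (0.02 and 0.36), Psmd9 (-0.15 and 0.01) and Psme4 (0.15 and 0.08). None of these passed the threshold. The groups did not overlap, in the higher direction, for Psmc6, the second Psmd12 probe and the first Psme4 probe. The same held for 25% of all proteasome probes tested and 13.6% of the brighter probes of the array. Whether the differences go with the motif was not tested. Of the other genes with the interferon letters, Psmb3 differed by 0.01 and Psmd4 by -0.01.

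Much of the variation of the proteasome probes lay between vehicle arrays. Vehicle replicate 3 was the lowest vehicle array for 46 of the 52 probes (88.5%), against 39.4% of all probes tested and 47.9% of the brighter ones, and it was the lowest of all 6 arrays for 41 of the 52. The level of the subunits on an array, the median over the 52 probes of the value minus the probe's mean, was -0.03, 0.07 and 0.08 in VND3207 mice, against -0.01, 0.07 and -0.16 in vehicle mice. One vehicle array was thus the low one, and the other 2 lay within the range of the VND3207 arrays. Without vehicle replicate 3 the median difference of the 52 probes was 0.02, and 27 of them were above 0. The median SD between replicates was 0.08 in VND3207 mice and 0.14 in vehicle mice, and Psmb9 had the largest vehicle SD, 0.46. The map of signals by array shows this low column.

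**Figure D3:**
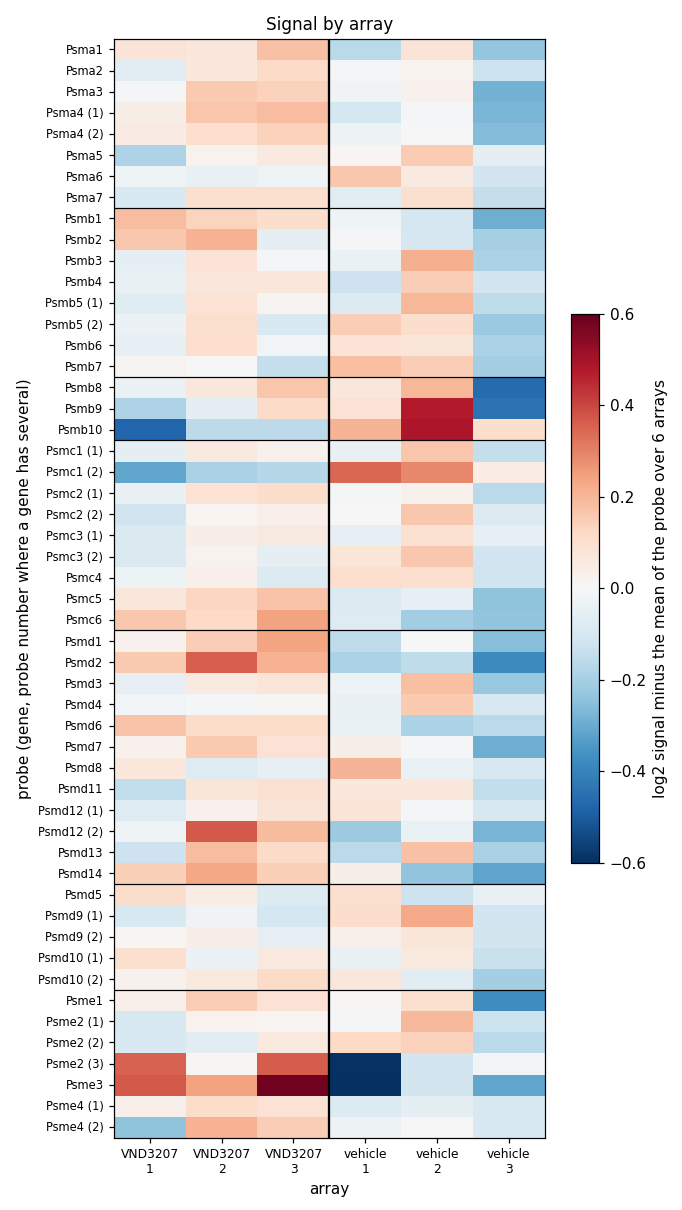
Log2 signal of each tested proteasome probe minus its mean over 6 arrays (colour), by array (x axis, VND3207 left and vehicle right of the thick line) and probe (y axis, roles parted by thin lines). Vehicle replicate 3 is below 0 for most probes, most of all for Psmb8, Psmb9, Psme1 and Psmd2, while Psme3 is lowest in vehicle replicate 1.

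The interferon genes showed the same low array. Of 20 interferon signalling and response genes reported here, 19 had their lowest vehicle value in replicate 3, and the level of the list was -0.08, 0.13 and 0.15 in VND3207 mice, against 0.05, 0.27 and -0.49 in vehicle mice. Isg15, an interferon-induced ubiquitin-like protein, read 5.50, 6.15 and 6.19 in VND3207 mice, against 6.38, 7.08 and 4.83 in vehicle mice. Its vehicle values span a wider range than its VND3207 values, as those of Psmb8, Psmb9 and Psme1 do. None of the 20 genes passed the threshold, and their median difference was 0.15, with Irf1, a transcription factor induced by interferon, at -0.07 (SE 0.16, limma adjusted p = 0.837).

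Of the 12 class I antigen processing genes, which carry and load the peptides the proteasome cuts, 0 passed the threshold and the median difference was 0.07. Tap1, a subunit of the peptide transporter, read 1.55, 1.72 and 1.59 in VND3207 mice, against 1.30, 1.59 and 0.66 in vehicle mice. It overlapped between groups, and its difference was 0.44 (SE 0.24, limma adjusted p = 0.318), or 0.18 without vehicle replicate 3.

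Of 29 assembly factors and partners of the proteasome reported here, 1 was higher, and the median difference was 0.01. Uchl5, a deubiquitinase bound to the regulatory particle, read 3.53, 3.59 and 3.59 in VND3207 mice, against 3.25, 3.22 and 3.14 in vehicle mice. Its groups did not overlap, and it differed by 0.37 (SE 0.09, limma adjusted p = 0.0461), a call lost when any 1 array was left out (adjusted p = 0.0889 to 0.141). Ubb, a ubiquitin gene, differed by 0.01 on its brightest probe, which represents it in the list. A dimmer Ubb probe, outside the list's counts, was called lower, at -0.40 (SE 0.10, limma adjusted p = 0.0498) with no overlap. Nfe2l1, the factor that raises subunit genes when the proteasome is blocked, differed by 0.00 (SE 0.10, adjusted p = 0.982), and Pomp, the maturation factor of the barrel, by 0.08 (SE 0.14, adjusted p = 0.761).

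Differences on these arrays moved with signal strength over all probes, and the proteasome genes are among the bright ones. The median difference was -0.36 for all tested probes at a level from -5 to -4, 0.04 at 2 to 3, and -0.22 at 7 to 8. The median proteasome level was 4.35. With percentiles taken in bins of brightness and interpolated between them, 14 of the 52 proteasome probes lay above the 90th percentile, Psmd2 and Psme3 among them, and 1, probe 2 of Psmc1, lay below the 10th percentile. Psmb10, at a level of 6.96, lay at that lower edge: below the 10th percentile of its own bin, -0.46, and just inside the interpolated band. The part of brightness in these results was not tested beyond the correction. Under it Psmd2 differed by 0.61 (limma adjusted p = 0.0242) and Psmb10 by -0.07 (adjusted p = 0.773). Psme3 differed by 0.82 but no longer passed the threshold (adjusted p = 0.0634).

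**Figure D4:**
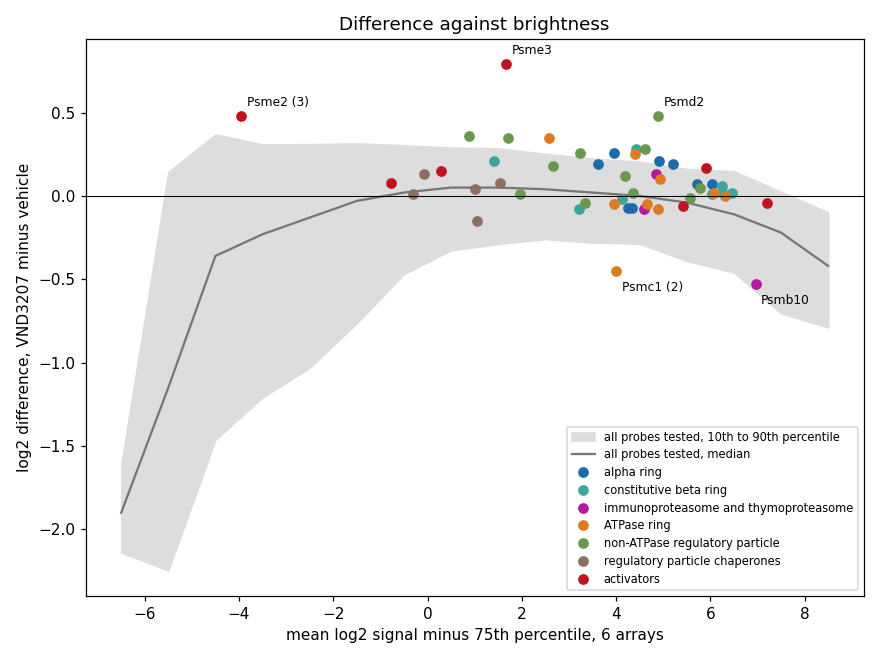
Log2 difference, VND3207 minus vehicle (y axis), of each tested proteasome probe against its mean log2 signal minus the 75th percentile over 6 arrays (x axis), coloured by role. The line is the median and the band the 10th to 90th percentile of all probes tested, in bins joined by straight lines; Psme3 at 0.79 and Psmd2 at 0.48 lie above the band, probe 2 of Psmc1 at -0.45 lies below it, and Psmb10 at -0.53 lies at its lower edge.

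Markers of cell types in the jejunum also moved between the groups. Of 10 enterocyte markers, 5 were lower, and the log2 of their summed signal was 10.88 to 11.07 in VND3207 mice, against 11.40 to 11.62 in vehicle mice. Of 6 T cell markers 1 was lower, Cd4, which carries most of their sum (5.11 to 5.33 in VND3207 mice, against 5.85 to 6.30 in vehicle mice), and 5 had a difference above 0. Of 6 myeloid markers 1 was lower, Itgam on its brightest probe (-0.75), whereas a dimmer Itgam probe differed by 0.55 with no overlap (adjusted p = 0.101). The summed signal of the 6 was 4.97 to 5.09 in VND3207 mice, against 5.25 to 5.72 in vehicle mice. None of 4 B and plasma cell markers passed the threshold, with a summed signal of 5.44 to 6.09 in VND3207 mice, against 5.93 to 6.23 in vehicle mice. Of 3 Paneth cell markers 2 were lower. The enterocyte and Paneth markers called lower were bright, at levels from 7 to 9. Over all probes tested, the median difference was -0.22 at a level of 7 to 8 and -0.42 at 8 to 9. Of all probes tested 14.6% were called lower, and of the brighter ones 4.57%. The part of brightness in the marker differences was not tested. No goblet cell marker of 4 passed the threshold, with a summed signal of 9.17 to 9.18 in VND3207 mice, against 9.26 to 9.43 in vehicle mice. The bright Tff3 (-0.33) and Fcgbp (-0.15) carry most of that sum. The dimmer Clca1 differed by 0.98 with no overlap (limma adjusted p = 0.071) and Muc2 by 0.33, and the median of the 4 differences was 0.09. Of 3 pancreatic acinar markers 1 was lower, Cpa1, and their summed signal was -2.60 to -2.39 in VND3207 mice, against -1.99 to -0.81 in vehicle mice. Cpa1 was well above background on 0 VND3207 arrays and 3 vehicle arrays. It passed the filter through the vehicle arrays alone, so no weight is put on its call. Prss1 was well above background on 1 VND3207 array and 3 vehicle arrays. No smooth muscle marker of 4 passed the threshold, but VND3207 replicate 3 stood apart: their summed signal was 7.07, 7.02 and 5.12 in VND3207 mice, against 6.83, 6.83 and 7.07 in vehicle mice. Without that array Psmd2 differed by 0.50, Psme3 by 0.71 and Psmb10 by -0.58. The 3 adipose markers, none past the threshold, varied widely, with a summed signal of -0.30 to 5.89 in VND3207 mice, against -1.16 to 3.87 in vehicle mice. The part of these shifts in the Psmb10, Psmd2 and Psme3 values was not tested.

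The plot of 4 probes over all settings shows how far their differences depend on the processing. Psmd2 and Psme3 were above 0 in every setting run, and Psmb10 and probe 2 of Psmc1 below 0 in every one. Psmd2 passed the threshold in 8 of 10 other settings and in 0 of 6 with an array left out.

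**Figure D5:**
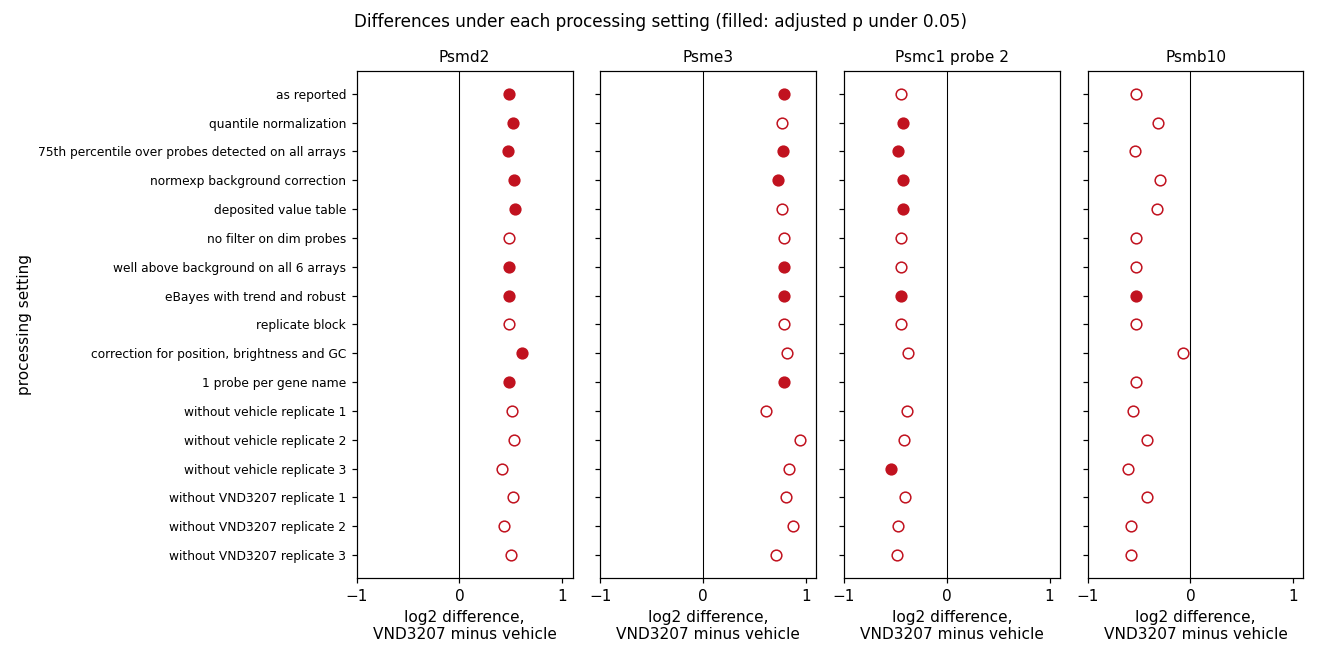
Log2 difference, VND3207 minus vehicle (x axis), of Psmd2, Psme3, probe 2 of Psmc1 and Psmb10 under each processing setting (y axis), filled where the limma adjusted p is under 0.05. Psmd2 spans 0.41 to 0.53 and Psme3 0.61 to 0.94 with 1 array left out, all unfilled, and Psmb10 is nearest 0 after the correction, at -0.07.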

How the data were processed

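Total RNA from the jejunum of 6 samples, 3 of each group by their titles, was hybridised to 1-colour arrays with probes of 60 bases. The deposited intensity values are the background-subtracted, detrended signal of Agilent Feature Extraction, per the file headers (version 10.7.1.1). The series' table holds deposited log2 values with a median of 6.05 in each column, which correlated with the scanner values of their arrays at r from 0.997 to 1.000; how they were scaled is not given in the sources used here.

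Control and outlier spots were left out, and log2 spots of a probe averaged after subtracting the 75th percentile of the array's 59305 non-control spots. Probes well above background on at least 3 of 6 arrays were kept (36102), and 36101 of them were fitted by group alone in R 4.3.3 with limma 3.58.1 (lmFit, then eBayes; 2-sided), p-values being adjusted after Benjamini and Hochberg at a threshold of 0.05. The number of arrays limits the precision. A list's gene is represented by its brightest tested probe, and some genes of the lists are not reported here and left out of the counts and medians. The fit was tested on simulated data. Promoters are from RefSeq, and probe positions are the mm9 ones of the files.

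Named were members past the threshold, immunoproteasome and activator genes, catalytic subunits, Psmd4, Psmd14, the extremes of each role, probes of 1 gene over 0.5 apart, and listed pathway genes past the threshold or set by name. Psma4's second probe, Psmc6, Psmd1, Psmd6, Psmd12, Isg15 and the ratios were chosen after their values were seen. The dimmer Ubb probe and the Psmd11, Psmb9 and Psmg probes of the other observations also lie outside that naming. The members and lists were chosen with earlier results of these data known. Alternatives were other scalings, normexp with an offset of 50, the deposited table, other filters, a trended robust variance, a replicate block, 1 probe per gene, a correction by smooth trends in mgcv 1.9.3, and leaving out each array. Slide could not be fitted, as each holds 1 group.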

Additional observations from a re-analysis of the deposited data

How the results depend on the processing

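The count of proteasome probes called higher, 2 as reported, was 1 after quantile normalization and in the deposited table, 0 without a filter, 0 with the replicate block, and 0 to 0 with each array left out. The count called lower, 0 as reported, was 1 after quantile normalization, with the percentile over detected probes, after normexp and in the deposited table, 2 with the trended robust variance, and 0 to 1 with an array left out (1 without vehicle replicate 3). The median proteasome difference stayed within 0.05 to 0.15 in other settings and 0.02 to 0.13 with an array left out. Over all probes 334 were higher and 5259 lower as reported, and 5.97% of calls were higher; the counts were 852 and 3257 (20.7%) after quantile normalization, 850 and 3224 (20.9%) after normexp, 919 and 3176 (22.4%) in the deposited table, and 922 and 1939 (32.2%) with the correction, 662 higher without a filter, and 2923 lower among probes well above background on all arrays. With an array left out they were 126 to 287 higher and 2966 to 5071 lower. Quantile normalization moved the median of all probes by 0.10 and the deposited table by 0.11. Of 61 pathway genes, 1 was called as reported, 3 after quantile normalization and in the deposited table, 5 after normexp, 0 without a filter, 0 with the replicate block, and 0 to 0 with an array left out. In 43 of 474 repeats a probe value changed sign with neither value past the threshold.

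No pairing by replicate number was seen: deviations of same-numbered samples correlated at 0.13, -0.11 and -0.05, and 1 of the 3 numbers correlated best with itself. With 3 samples a group this check cannot exclude a pairing. With the replicate block, 143 probes were higher and 3410 lower, with 0 proteasome probes called.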

Other observations

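Some probes measure proteasome transcripts under other names and were not counted among the subunit genes. A probe for a Psmd11 transcript cluster read 2.36, 2.56 and 2.60 in VND3207 mice, against 2.19, 2.28 and 2.09 in vehicle mice, with no overlap and a difference of 0.32 (limma adjusted p = 0.133). The Psmd11 probe counted among the subunits read 1.82, 2.04 and 2.06 in VND3207 mice, against 2.03, 2.03 and 1.82 in vehicle mice, with overlap. A probe for another Psmb9 transcript read -5.18, -5.18 and -4.30 in VND3207 mice, against -4.35, -3.60 and -4.50 in vehicle mice, a difference of -0.74 (SE 0.34, adjusted p = 0.232), and was well above background on 1 VND3207 array and 3 vehicle arrays.

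The chaperones that pair alpha subunits into rings gave mixed values. Psmg1 differed by 0.34 (adjusted p = 0.072) on 1 probe with no overlap and by 0.12 (adjusted p = 0.6) on the other. Psmg3 read 2.35, 2.61 and 2.45 in VND3207 mice, against 2.10, 2.29 and 2.13 in vehicle mice, a difference of 0.30 (adjusted p = 0.164). Psmg4 differed by 0.15 (limma adjusted p = 0.406), and the groups overlapped for neither Psmg3 nor Psmg4. Psmg2, the partner of Psmg1, read 1.15, 1.34 and 1.20 in VND3207 mice, against 1.47, 1.39 and 1.46 in vehicle mice, a difference of -0.21 (adjusted p = 0.253), with no overlap.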
